A study of Mus musculus with 35 samples.

Results

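The genes described here encode the proteins of the cytosolic ribosome. They are all genes on the array whose mouse symbol follows the Rpl and Rps numbering, together with Rplp0, Rplp1, Rplp2 and Rpsa, without the Rps6k kinases and without pseudogenes, and each is read from the probe with the highest mean over all arrays. Of 89 matching symbols, 5 are annotated as pseudogenes (Rpl6l, Rps12l1, Rps3a2, Rps3a3 and Rps4l), and Rpl37 had no probe that the RefSeq table names, which left 83 genes of 20886 genes named on the array. The filter on dim probes kept 79 of them. The other 4 were Rpl10l, above background on 5 of 35 arrays, Rpl7l1, on 2, Rpl3l, on 1, and Rpl39l, on 0. No spot of any array was saturated.

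Ribosomal proteins assemble with ribosomal RNA into a small subunit, which reads the messenger RNA, and a large subunit, which forms peptide bonds. Their messenger RNAs are among the most abundant of a growing cell and commonly begin with a C followed by a run of pyrimidines, the 5′ terminal oligopyrimidine (TOP) tract, through which the mTOR pathway and the binding protein Larp1 control their translation. A few members have a second gene for a near-identical protein, such as Rps27l beside Rps27 and Rpl22l1 beside Rpl22, and in mice loss of Rpl22 arrests the development of alpha-beta T cells. Because such genes and many ribosomal protein pseudogenes share sequence, an array probe can bind transcripts of more than one of them, and each value below is that of the probe.

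The bases around the annotated transcription start show where such runs of pyrimidines lie. Each window runs from 15 bases before the start to the 15 bases that begin the transcript, 5′ to 3′ on the strand of the gene, in the RefSeq sequence of GRCm38.p6. Capitals mark a C followed by at least 5 pyrimidines (C or T, on the strand of the gene only), the longest such run in the window. In Rplp2, a stalk protein, and in Rps24 and Rps27 of the small subunit the run spans the annotated start, whereas in Rps27l it ends before the start and Rps19 and Rpl22 have none in the window. The pairs Rps27 and Rps27l and Rpl22 and Rpl22l1 are printed because their levels are set side by side below, and Rps19 and Rps2 because, with Rps27l, they varied most between groups.
Rplp2 at chr7:141447636-141447665, plus strand: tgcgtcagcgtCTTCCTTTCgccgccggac
Rps24 at chr14:24490663-24490692, plus strand: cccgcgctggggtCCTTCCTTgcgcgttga
Rps27 at chr3:90213634-90213663, minus strand: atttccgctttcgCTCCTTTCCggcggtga
Rps27l at chr9:66946071-66946100, plus strand: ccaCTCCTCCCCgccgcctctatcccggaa
Rpl22 at chr4:152325711-152325740, plus strand: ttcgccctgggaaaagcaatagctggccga
Rpl22l1 at chr3:28805493-28805522, plus strand: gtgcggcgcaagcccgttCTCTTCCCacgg
Rps19 at chr7:24884577-24884606, plus strand: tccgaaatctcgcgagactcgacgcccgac
Rps2 at chr17:24720048-24720077, plus strand: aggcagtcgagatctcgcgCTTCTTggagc

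RefSeq gave a window for 63 of the 83 genes. A tract of at least 6 bases was present in 34 of these 63 (54.0%), with a median length of 9 bases, and in 6059 of 27025 windows of all genes (22.4%). A match describes letters at an annotated start and not a site in use.

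The study set CD8+ resident memory T cells (Trm) of liver, lung and small intestine, selected magnetically for CD8b and then for CD103, against effector memory T cells (Tem) from the blood of the same animals, CD8b-positive cells depleted of CD62L-positive cells. Whole liver, whole lung, whole small intestine and whole blood mononuclear cells (PBMC) were taken without sorting. All 8 groups came from healthy wild type C57BL/6 female mice of 8 to 16 weeks, and all RNA was amplified in 2 rounds before hybridisation to 1-colour Agilent arrays. Liver Trm had 5 arrays, the other sorted populations 6 each and every unsorted sample type 3. Because the labels do not tie arrays to animals, each p-value reflects only the spread among the samples at hand, which may be technical.

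All 10 CD8 T cell markers were above background on every sorted-cell array. On every liver Trm array 7 of 10 hepatocyte markers were also above background, with a summed level of 1.18 to 4.12 (log2), against 10 of 10 and 3.90 to 4.06 in whole liver and 0 of 10 and -4.62 to -3.65 in blood Tem. Of the 10, Fga was above background on no liver Trm array. Gut epithelial markers were above background on every array for 2 of 10 in intestine Trm (summed level -2.39 to 0.05) and 10 of 10 in whole intestine (3.47 to 4.80). Paneth and goblet cell markers were so for 2 of 6 in intestine Trm (0.23 to 2.53) and 6 of 6 in whole intestine (2.58 to 3.99), with Itln1 at a mean of 0.85 and 1.04 and Lyz1 at -0.01 and 0.37 in that order. The plasma cell gene Jchain averaged -0.66 in intestine Trm and -0.88 in whole intestine. The B cell list it belongs to had medians of -7.7 and -8.7 there. In both groups 2 of its 6 genes were above background on every array, and 3 and 4 were so on no array. Neutrophil markers summed to -2.80 to -0.09 in liver Trm and -2.09 to 0.65 in lung Trm, with S100a9 at a mean of -1.72 and -1.001. The sums were -5.57 to -2.87 in whole liver, -4.17 to -2.17 in whole lung and -5.15 to -1.29 in blood Tem. The list medians were lower, at -6.82 in liver Trm, -7.05 in lung Trm, -8.53 in whole liver and -7.29 in whole lung. In both liver and lung Trm 3 of the 7 were above background on no array. Those above background on every array were 1 of 7 in liver Trm and 2 of 7 in lung Trm. Lung epithelial markers were so for 2 of 7 in lung Trm (-4.42 to 2.91) and 6 of 7 in whole lung (2.45 to 2.87). The part of these other cells in the results below was not tested. In such bulk samples, a smaller share of a cell type and less RNA per cell cannot be told apart. The array whole PBMC 1 stood apart, with 7.80% of its probes above background against 24.8% and 22.2% on the other whole PBMC arrays, and only 39 of the 79 ribosomal protein genes above background. For comparisons that rest on it, the counts over the 79 genes and the leading genes are given with and without it. Counts by subunit and by tract are given with it only.

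Ribosomal protein genes were among the brightest on every array other than whole PBMC 1. Levels are log2 intensities minus the 75th percentile of probes detected on all arrays. The median of the 79 genes lay above 96.3% to 99.6% of all probes on each array other than whole PBMC 1, where it lay above 91.3%. On the sorted arrays it was within 0.62 to 1.84 log2 units of the brightest probe of the array.

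The array medians of the 79 genes were 0.97, 1.45, 0.93, 0.88 and 1.27 in liver Trm. They averaged 0.95 ± 0.07 for lung Trm, 0.90 ± 0.15 for intestine Trm and 1.13 ± 0.42 for the Tem of blood (SD, n = 6 each). The sorted groups overlapped, and the highest sorted array was blood Tem 3 at 1.92, with the other Tem arrays at 0.79 to 1.23. The medians were -0.67, -0.82 and -0.94 in whole liver and -0.28, -0.51 and -0.45 in whole lung. They were -0.12, -0.28 and 0.90 in whole intestine, and -5.44, 0.41 and 0.03 in whole PBMC. Every sorted array lay above every array of whole liver, whole lung and whole PBMC, while the third whole intestine array lay within the range of intestine Trm (0.72 to 1.09).

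**Figure D1:**
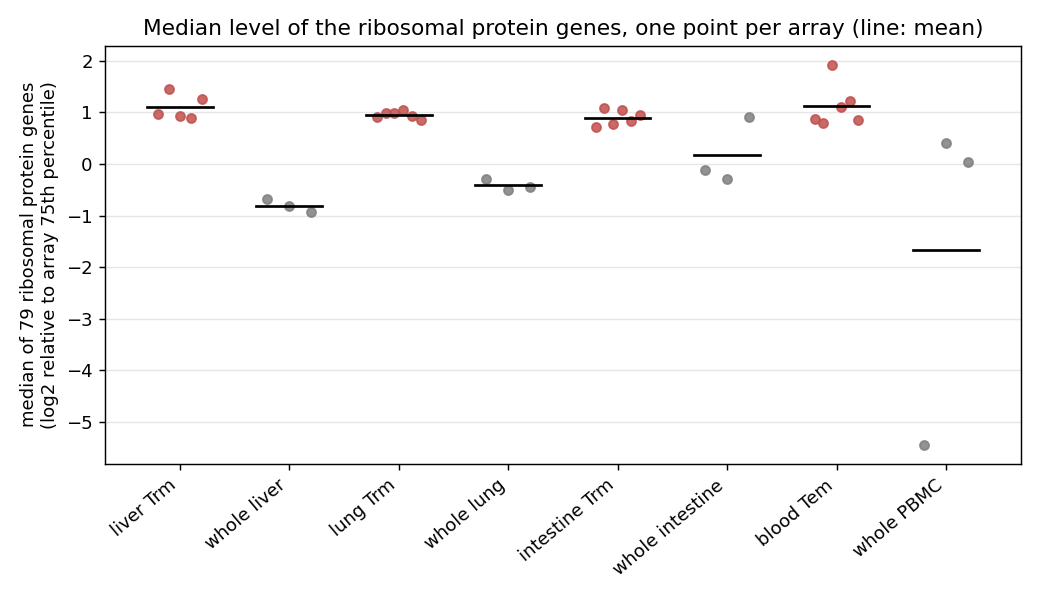
Median log2 level of the 79 ribosomal protein genes on each of the 35 arrays (points), relative to the 75th percentile of probes detected on all arrays, with the group mean as a line. Sorted cells are red and unsorted samples grey. The sorted groups average 0.90 to 1.13, and whole PBMC 1 lies at -5.44.

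The comparison with blood Tem sets resident against circulating memory cells. No ribosomal protein gene passed the threshold in either comparison (limma, adjusted p under 0.05), while 52.8% of all 8570 genes tested did in liver Trm and 3.38% in lung Trm. At an unadjusted p under 0.05 there was 1 ribosomal protein gene in liver Trm and 0 in lung Trm. The median difference of the 79 genes from blood Tem was -0.08 in liver Trm and -0.19 in lung Trm (log2), beside medians over all genes of -0.67 and -0.27. The liver counts depended on the scaling: over probes detected in sorted cells the all-gene median was -0.27, that of the 79 genes 0.32, and 15 of them were called higher in liver Trm. Without liver Trm 2, 8 were called lower, and without blood Tem 3, 2 were called higher. Of all genes, 24.8% to 64.2% were called over 14 alternative settings and 36.6% to 58.5% with 1 array left out.

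The intervals around these differences were narrow. The 95% interval lay within 1 log2 unit of 0, that is within 2-fold, for 69 of the 79 genes in liver Trm, 78 in lung Trm and 66 in intestine Trm, against 10.1%, 31.9% and 23.9% of all genes tested. The median SE was 0.24, 0.23 and 0.23 log2 units for the 79 genes and 0.41, 0.39 and 0.39 for all genes. The extremes in liver Trm, neither past the threshold, were Rps19, at -0.80 ± 0.35 (SE, adjusted p = 0.056), and Rps24, at 0.37 ± 0.23 (adjusted p = 0.16). In lung Trm they were Rps27l, at -0.55 ± 0.34 (adjusted p = 0.39), and Rps7, at 0.16 ± 0.25 (adjusted p = 0.76).

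In intestine Trm 1 of 79 genes was called lower than in blood Tem and none higher, against 11.8% and 6.92% of all genes, with 9 of the 79 at an unadjusted p under 0.05. The gene was Rps19, a small-subunit protein that is mutated in Diamond-Blackfan anaemia in humans. Its lowest, median and highest levels were -2.75, -2.29 and -1.44 in intestine Trm, against -1.65, -0.95 and -0.50 in blood Tem. The difference was -1.07 ± 0.33 (adjusted p = 0.027). The groups overlapped in these values, and the call was lost when any of 6 arrays was left out, with adjusted p-values of 0.051 to 0.067. It was also lost in a fit of all 35 arrays (adjusted p = 0.19).

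No ribosomal protein gene was called between Trm populations. Of all genes, 23.6% were called for lung against liver Trm, 13.3% for intestine against liver Trm and 8.73% for intestine against lung Trm. At an unadjusted p under 0.05 there were 10, 0 and 9 of the 79 genes in the same order. The median differences were -0.14, -0.23 and -0.02 (log2), and the 95% interval lay within 1 log2 unit for 60, 77 and 69 of the 79 genes, against 14.7%, 19.4% and 33.3% of all genes. Scaled over probes detected in sorted cells, 18 genes were called lower in lung than in liver Trm, and without liver Trm 1 or 2 the count was 8 or 7. For lung against liver Trm, 12.8% to 69.6% of all genes were called over 14 alternative settings and 6.45% to 44.2% with 1 array left out.

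The largest difference below 0 between lung and liver Trm was that of Rps16. Rps16, a small-subunit protein, had its lowest, median and highest levels at 0.92, 0.99 and 1.25 in lung Trm, against 1.23, 1.69, 2.04, 1.95 and 1.85 in the liver Trm arrays, so that 1 array of each group overlapped. Its difference was -0.73 ± 0.28 (adjusted p = 0.054). Rps20, at -0.58 ± 0.22 (adjusted p = 0.052), and the laminin receptor gene Rpsa, at -0.65 ± 0.26 (adjusted p = 0.066), lay on the same side. Of the 79 genes, 7 had every lung Trm array below every liver Trm array, and 5.96% of all genes did. Rps19 lay at the other end, at 0.64 ± 0.35 (adjusted p = 0.15).

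For intestine against lung Trm, 6 genes had every intestine array below every lung array, and 1.2% of all genes did. The extremes were Rps19, at -0.91 ± 0.33 (adjusted p = 0.083), and Rps27l, at 0.62 ± 0.34 (adjusted p = 0.28). For intestine against liver Trm they were Rps20, at -0.44 ± 0.22 (adjusted p = 0.18), and Rps27l, at 0.39 ± 0.36 (adjusted p = 0.48). Rps19 and Rps27l, the dimmest probes of the 79, thus marked an end in each of the 6 comparisons of sorted cells.

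**Figure D2:**
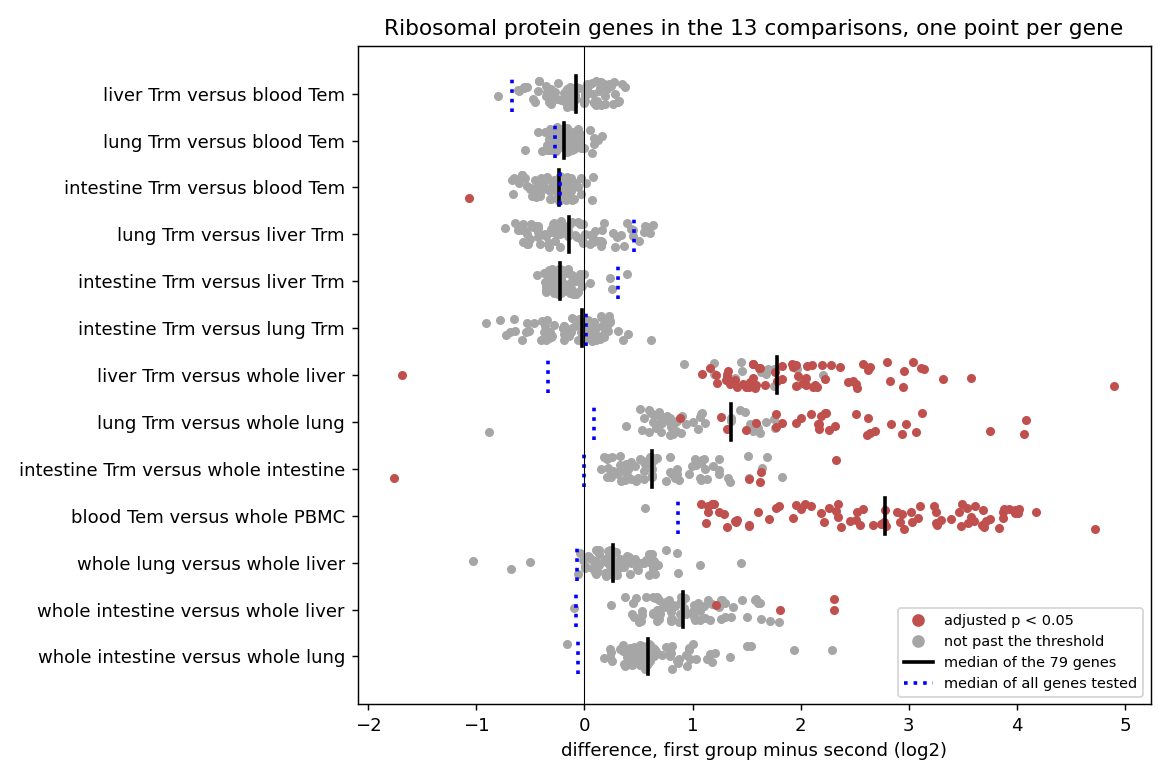
Differences (log2, first group minus second) of the 79 ribosomal protein genes in the 13 comparisons, one point per gene. Red points passed an adjusted p of 0.05, black bars are the medians of the 79 genes and dotted blue bars those of all genes tested. The 6 comparisons among sorted cells hold 1 red point, and liver Trm against whole liver holds 63.

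Relative to the detected probes of each array, 78 of the 79 genes had a higher mean in each Trm population than in its whole organ. In blood Tem all 79 had a higher mean than in whole PBMC. How many passed the threshold differed between comparisons and depended on whether whole PBMC 1 was in the fit. Fits with whole organs used all 35 arrays, which share 1 estimate of spread. In liver Trm 62 of 79 genes were called higher than in whole liver and 1 lower, against 8.59% and 23.8% of all 10534 genes tested. The median difference was 1.78 (log2), beside -0.33 over all genes. Every liver Trm array lay above every whole liver array for 78 of the 79 genes, against 10.1% of all genes, and below for 1, Rps27l, against 29.6%. Scaled to the median of the ribosomal protein genes themselves, 12 were higher and 3 lower. Without the third whole liver array 37 were called, and with 1 array left out 26.7% to 32.1% of all genes were.

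In lung Trm 32 genes were called higher than in whole lung and 0 lower, against 15.7% and 25.6% of all genes. The median difference was 1.35, beside 0.09 over all genes, and the groups did not overlap for 78 genes, with lung Trm above, as for 19.2% of all genes. Without the second or the third whole lung array 21 were called, and with 1 array left out 34.4% to 42.4% of all genes were. In intestine Trm 4 genes were called higher than in whole intestine and 1 lower, against 11.7% and 20% of all genes. Its median difference was 0.63, beside -0.01, and intestine Trm lay wholly above whole intestine for 16 genes, against 13.7% of all genes. Without 1 of the 3 whole intestine arrays in turn, 3, 1 and 10 genes were called, and with 1 array left out 25.3% to 31.5% of all genes were. In blood Tem 78 genes were called higher than in whole PBMC and 0 lower, against 44.2% and 11.4% of all genes, with a median of 2.78, beside 0.86. Tem lay wholly above whole PBMC for 69 genes, against 35.6% of all genes, and the gene not called was Rps24, at 0.56 ± 0.34 (adjusted p = 0.16), or 0.04 ± 0.30 without whole PBMC 1.

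Leaving whole PBMC 1 out of the fit changed the counts. Each group had its own mean, so differences outside blood could not change, and only their estimate of spread could. The scaling was kept, over probes above background on every array, whole PBMC 1 included. The influence of that array on the levels thus stayed in place. The median SE of the 79 genes in liver Trm against whole liver was 0.65 with whole PBMC 1 and 0.30 without it. Without it, 78 genes were called higher in liver Trm and 1 lower, 69 higher in lung Trm and 0 lower, and 36 higher in intestine Trm and 1 lower. All genes called were then 10.9%, 19.8% and 15.3% higher and 26.7%, 27% and 23% lower, in the same order. In blood Tem 45 genes were called higher and 0 lower without it, against 28.7% and 9.37% of all genes, and the median difference was 0.94.

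Both subunits took part, as counted with whole PBMC 1 in the fit. In liver Trm 36 of 47 large-subunit genes and 26 of 32 small-subunit genes were called higher than in whole liver, with median differences of 1.76 and 1.94 (log2). In lung Trm the counts were 19 of 47 and 13 of 32, with medians of 1.44 and 1.104. They were 3 of 47 and 1 of 32 in intestine Trm, and 47 of 47 and 31 of 32 in blood Tem. Of all genes, 8.59% were called higher for liver, 15.7% for lung, 11.7% for intestine and 44.2% for blood.

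The largest differences belonged to a few genes that recurred. Rps19 stood at -1.69, -0.61, -2.93, -2.45 and -1.67 in liver Trm, against -6.29, -5.82 and -8.20 in whole liver, where it was above background on 2 of 3 arrays. The arrays did not overlap, and the difference was 4.90 ± 0.65 (adjusted p = 3.91e-07). Against their organs, Rps19 differed by 4.09 ± 0.63 in lung Trm (adjusted p = 2.69e-06) and by 2.32 ± 0.63 in intestine Trm (adjusted p = 0.0041). The intestine call was lost without the second whole intestine array (1.89, adjusted p = 0.051).

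Rps2, a small-subunit protein near the messenger RNA entry, was at -0.13 to 0.29 in lung Trm, with a median of 0.11, against -3.79, -3.92 and -4.28 in whole lung. The groups lay far apart, with a difference of 4.06 ± 0.75 (adjusted p = 3.76e-05). In blood Tem the difference of Rps2 from whole PBMC was 4.72 ± 0.75 (adjusted p = 1.32e-05), and 3.11 ± 0.67 without whole PBMC 1 (adjusted p = 0.00096).

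Rpl32l, a gene named as Rpl32-like whose probe may also bind transcripts of Rpl32, was 3.57 ± 0.78 higher in liver Trm than in whole liver (adjusted p = 0.00044) and 3.75 ± 0.75 higher in lung Trm than in whole lung (adjusted p = 0.00011). Rps15a, of the small subunit, followed, at 3.32 ± 0.78 in liver Trm (adjusted p = 0.0010) and 3.12 ± 0.75 in lung Trm (adjusted p = 0.00096). Rps3, a small-subunit protein that also takes part in DNA repair, differed by 3.14 ± 0.50 in liver Trm (adjusted p = 7.21e-06). In intestine Trm the genes called higher after Rps19 were Rpl21, at 1.63 ± 0.52 (adjusted p = 0.014), Rpl19, at 1.62 ± 0.59 (adjusted p = 0.033), and Rpl28, at 1.52 ± 0.55 (adjusted p = 0.032), all of the large subunit. In blood Tem, Rpl32l, at 4.18 ± 0.75, Rpl31, at 4.02 ± 0.72, and Rpl13, at 4.01 ± 0.78, followed Rps2. With whole PBMC 1 left out they were at 2.35 ± 0.60 (adjusted p = 0.0033), 1.99 ± 0.44 (adjusted p = 0.0011) and 1.69 ± 0.38 (adjusted p = 0.0014).

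**Figure D3:**
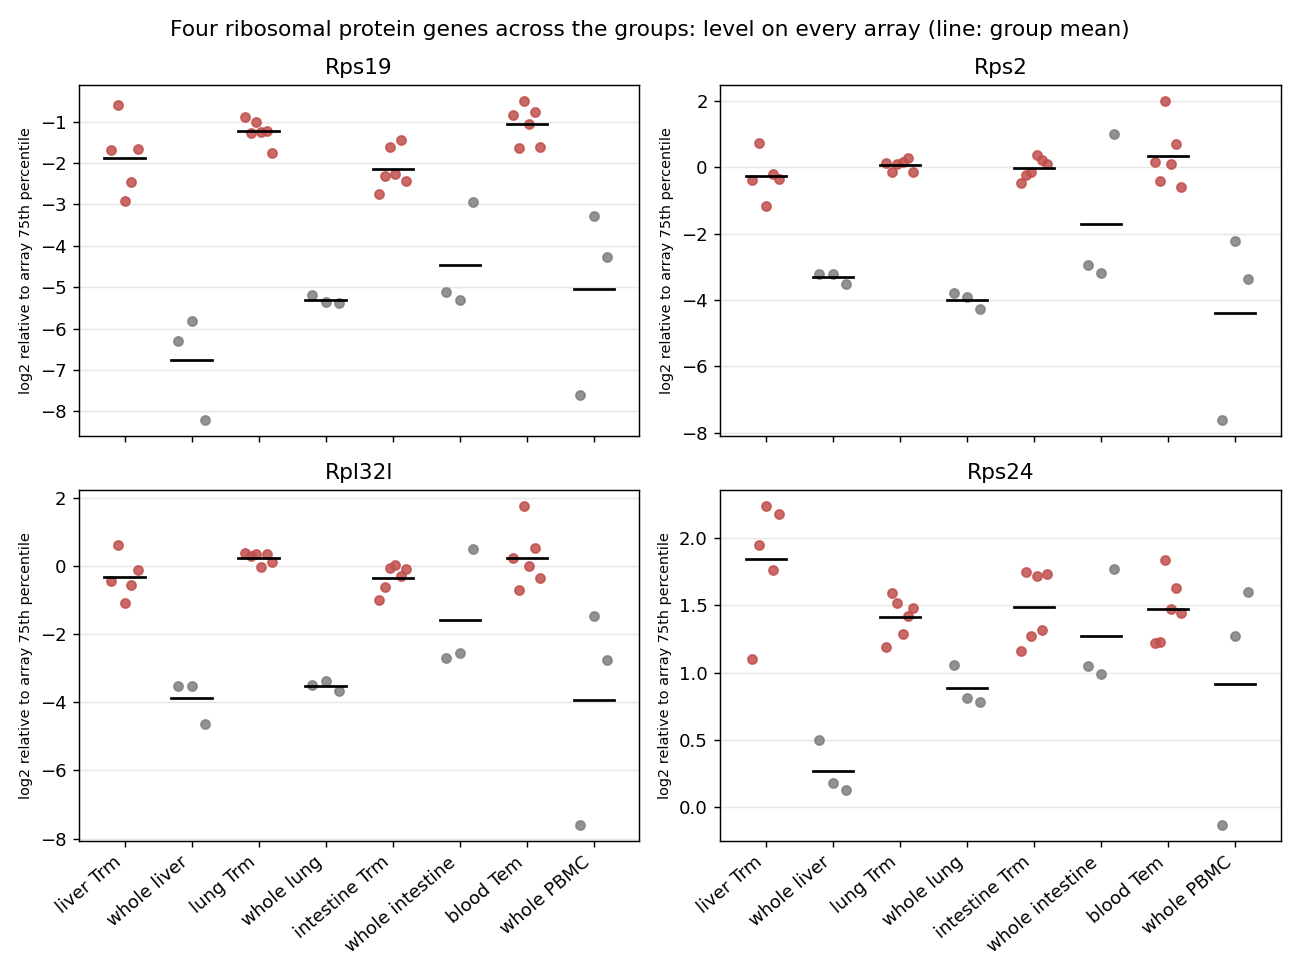
Levels of Rps19, Rps2, Rpl32l and Rps24 on every array (points, log2 relative to the 75th percentile of detected probes; lines are group means), sorted groups in red beside their whole organ in grey. For Rps2 the third whole intestine array, at 1.01, lies with the sorted cells and the other 2 lie at -2.95 and -3.19.

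Rps27l was the gene called lower. It encodes a near-copy of Rps27, a zinc-finger protein of the small subunit, and is known as a target of p53. Rps27l stood at -3.92, -3.23, -3.44, -2.56 and -3.79 in liver Trm, against -1.70, -1.67 and -1.74 in whole liver, with no overlap and liver Trm below. The difference was -1.68 ± 0.54 (adjusted p = 0.016). In intestine Trm its lowest, median and highest levels were -3.98, -2.92 and -2.24, against -1.77, -1.55 and -0.36 in whole intestine, again without overlap, and the difference was -1.76 ± 0.53 (adjusted p = 0.0093). This call was lost without the third whole intestine array (-1.33, adjusted p = 0.091), and the liver call was lost under quantile normalization (-1.01, adjusted p = 0.10).

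In lung Trm the difference of Rps27l from whole lung was -0.88 ± 0.53 and was not called (adjusted p = 0.19). In blood the sign was the other: Rps27l was 2.34 ± 0.53 higher in Tem than in whole PBMC (adjusted p = 0.00040), and 1.27 ± 0.47 without whole PBMC 1 (adjusted p = 0.031). Its partner Rps27 had a positive difference in each sorted group, which turned to -0.43 for lung Trm, -0.10 for intestine Trm and -1.28 for blood Tem when scaled to the median of the ribosomal protein genes. The difference of Rps27 was 2.11 ± 0.41 in liver Trm (adjusted p = 0.00011), 0.94 ± 0.40 in lung Trm (adjusted p = 0.056), 0.63 ± 0.40 in intestine Trm (adjusted p = 0.22) and 1.52 ± 0.40 in blood Tem (adjusted p = 0.0016). Without whole PBMC 1, Rps27 was newly called in lung Trm (adjusted p = 0.012), and its call in blood Tem was lost (0.82 ± 0.35, adjusted p = 0.064).

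Rpl22 and its paralog Rpl22l1 had differences of the same sign, except that scaled to the median of the ribosomal protein genes Rpl22 was at -0.52 for liver Trm, -0.55 for lung Trm, -0.17 for intestine Trm and -0.61 for blood Tem. Rpl22l1 was at -0.14, 0.40, -1.17, -0.97 and -0.24 in liver Trm, against -2.50, -2.78 and -3.10 in whole liver, and these did not overlap. Its difference was 2.37 ± 0.71 in liver Trm (adjusted p = 0.0088), 2.17 ± 0.69 in lung Trm (adjusted p = 0.010), 0.79 ± 0.69 in intestine Trm (adjusted p = 0.37) and 3.71 ± 0.69 in blood Tem (adjusted p = 5.71e-05), or 1.70 ± 0.36 there without whole PBMC 1 (adjusted p = 0.00075). Rpl22 differed by 1.39 ± 0.58 in liver Trm (adjusted p = 0.064) and 0.82 ± 0.56 in lung Trm (adjusted p = 0.27) with whole PBMC 1 in the fit, and was called in both without it (adjusted p = 6.45e-06 and 0.0020).

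**Figure D4:**
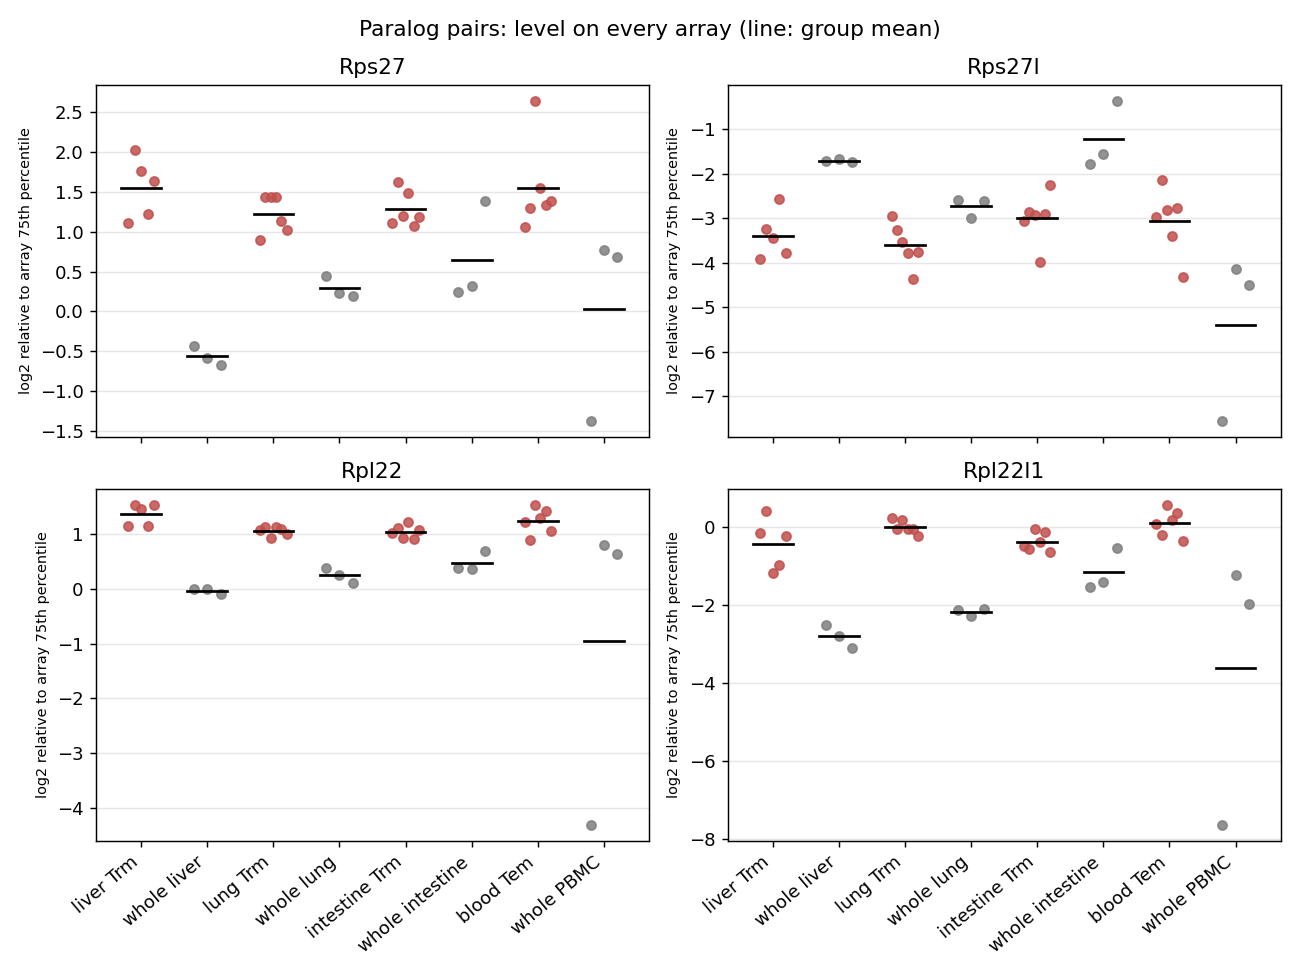
Levels of Rps27, Rps27l, Rpl22 and Rpl22l1 on every array (points, log2 relative to the 75th percentile of detected probes; lines are group means). Liver Trm and intestine Trm lie below their organs for Rps27l and above whole liver for the other genes. The axes differ between panels.

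The paralogs Rpl3l, Rpl7l1, Rpl10l and Rpl39l did not pass the filter and have no test. Their partners did. In liver Trm against whole liver, Rpl3 of the peptidyl transferase centre differed by 2.13 ± 0.67 (adjusted p = 0.013), Rpl7 by 1.32 ± 0.48 (adjusted p = 0.035), Rpl39 of the exit tunnel by 2.44 ± 0.86 (adjusted p = 0.028) and Rps4x, the X-linked S4 protein, by 2.96 ± 0.79 (adjusted p = 0.0034). Rpl10, which is needed for subunit joining, was not called with whole PBMC 1 in the fit, at 0.92 ± 0.68 (adjusted p = 0.34). In the fit without whole PBMC 1, Rpl10 was among the 78 genes called higher in liver Trm.

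The stalk of the large subunit, which recruits elongation factors, is built from Rplp0, Rplp1 and Rplp2. Rplp1 averaged 1.04 ± 0.35 in liver Trm and -0.79 ± 0.21 in whole liver (SD, n = 5 and 3). All 3 stalk genes were called higher in liver Trm than in whole liver, by 1.62 ± 0.58 for Rplp0 (adjusted p = 0.028), 1.83 ± 0.36 for Rplp1 (adjusted p = 0.00015) and 1.35 ± 0.39 for Rplp2 (adjusted p = 0.0074), though scaled to the median of the ribosomal protein genes their differences were -0.28, -0.079 and -0.56. With whole PBMC 1 in the fit, Rplp1 alone among them was called in lung Trm against whole lung, by 1.49 ± 0.35 (adjusted p = 0.00072). In intestine Trm none of the 3 was called in that fit, with differences of 0.40 ± 0.56 for Rplp0, 0.85 ± 0.35 for Rplp1 and 0.24 ± 0.38 for Rplp2.

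Rps6, the substrate of the S6 kinases, averaged 0.68 ± 0.32 for liver Trm, 0.59 ± 0.19 for lung Trm, 0.56 ± 0.30 for intestine Trm and 0.81 ± 0.63 for the Tem (SD). With whole PBMC 1 in the fit, its differences from the organs were 2.52 ± 0.81 in liver Trm (adjusted p = 0.015), 2.19 ± 0.78 in lung Trm (adjusted p = 0.024) and 1.03 ± 0.78 in intestine Trm (adjusted p = 0.31). In the same fit Rpsa was not called against whole liver (1.31 ± 0.57, adjusted p = 0.075), whole lung (0.66 ± 0.55, adjusted p = 0.37) or whole intestine (0.55 ± 0.55, adjusted p = 0.44). In the fit without whole PBMC 1, Rpsa was among the 78 genes called higher in liver Trm.

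The genes differed in how far they kept their place once each array's own median of the 79 genes was subtracted. The group means of this relative level spanned a median of 1.09 log2 units over the 8 groups, and under 1 unit for 32 of the 79 genes. They spanned 0.22 for Rpl18, 0.26 for Rpl29, 0.35 for Rpl34 and 0.40 for Rps9. They spanned 3.78 for Rps19, 3.67 for Rps27l, 2.78 for Rps2 and 2.39 for Rpl32l. Rpl18 averaged 0.98 in liver Trm and -0.80 in whole liver, which is close to the shift of the median itself.

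The size of the difference varied with the brightness of the probe. Among the 79 genes, the Spearman correlation of mean level with the difference was -0.70 for liver Trm against whole liver, -0.81 for lung, -0.70 for intestine and -0.74 for blood. The points share their arrays and each level enters its own difference, so this is a description. The 26 brightest genes had median differences of 1.51, 0.80, 0.37 and 1.82 log2 units and the 26 dimmest 2.51, 2.41, 1.22 and 3.63, in the same order. In the fit without whole PBMC 1 the correlation for blood was -0.81, with medians of 0.68 for the brightest and 1.57 for the dimmest genes, and the other correlations were -0.68, -0.78 and -0.68.

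Among sorted cells the slope ran either way. The same correlation was 0.89 for liver Trm against blood Tem, -0.56 for lung Trm and 0.77 for intestine Trm. In liver Trm the median difference from blood Tem was 0.15 for the 26 brightest genes and -0.35 for the 26 dimmest.

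**Figure D5:**
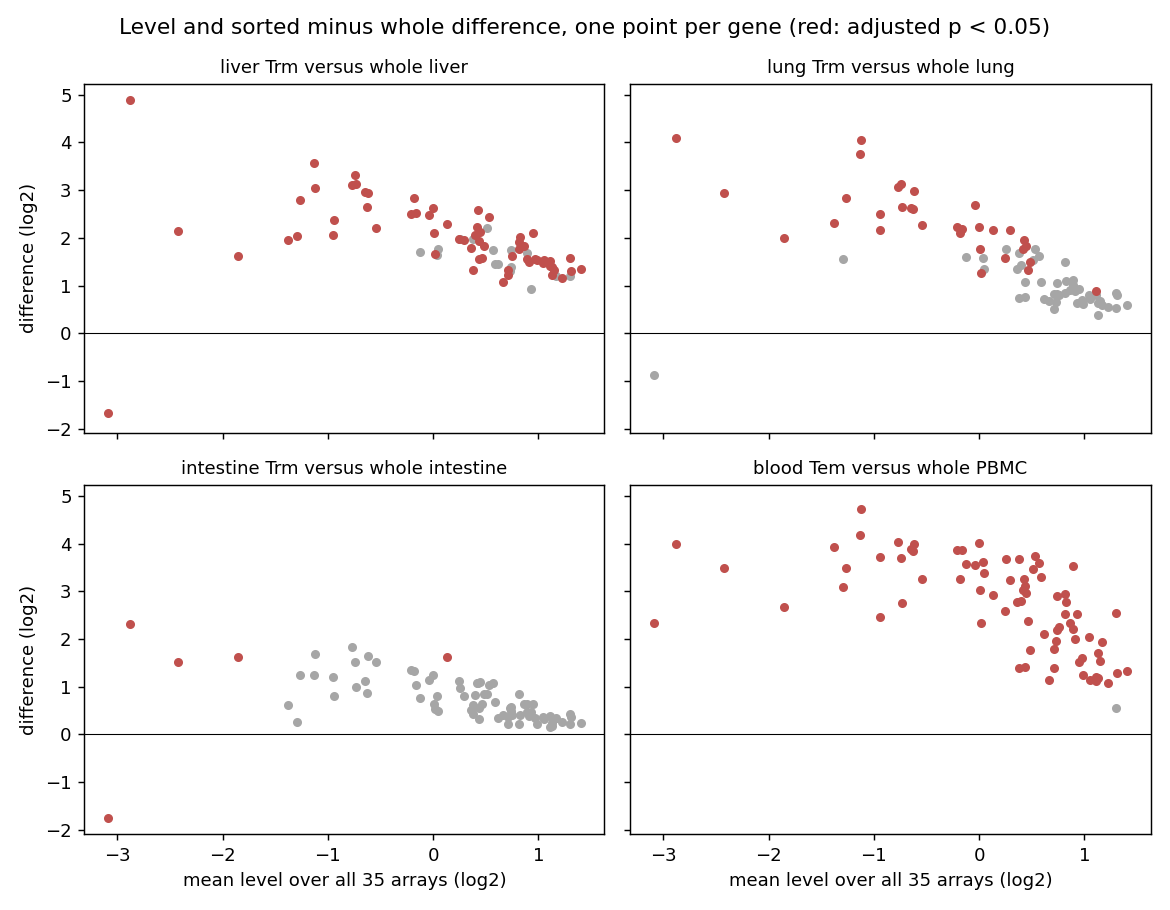
Difference of each of the 79 ribosomal protein genes between sorted cells and their whole organ (log2, vertical) against its mean level over all 35 arrays (log2, horizontal), red where the adjusted p was under 0.05. Dimmer genes lie higher, and Rps27l, the dimmest of the 79, lies below 0 in the 3 Trm panels.

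The difference between sorted cells and organ was itself compared between organs. Its median over the 79 genes was 1.16 log2 units larger for liver than for intestine, 0.45 larger for liver than for lung and 0.65 larger for lung than for intestine. The interaction was called for 1 gene, Rps3, in liver minus intestine (2.14 ± 0.70, adjusted p = 0.033) and for none in the other 2 contrasts. Called shares of all genes were 14.4% for liver minus intestine, 15.7% for liver minus lung and 21.7% for lung minus intestine. At an unadjusted p under 0.05 there were 11 ribosomal protein genes for liver minus intestine, 2 for liver minus lung and 3 for lung minus intestine. Without whole PBMC 1, 34 genes were called for liver minus intestine, 1 for liver minus lung and 14 for lung minus intestine, against 18.6%, 20.8% and 26.6% of all genes.

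Between whole organs, the levels ran from whole liver over whole lung to whole intestine. Whole intestine had 4 genes called higher than whole liver and 0 lower, against 14% and 16.5% of all genes. These were Rps19 (2.31 ± 0.73, adjusted p = 0.016), Rpl32l (2.31 ± 0.87, adjusted p = 0.042), Rps3 (1.81 ± 0.56, adjusted p = 0.015) and Rps27 (1.21 ± 0.46, adjusted p = 0.042). The median difference was 0.92, and the whole intestine arrays lay above the whole liver arrays for 75 genes, against 25.3% of all genes. Without whole PBMC 1 there were 48 genes called higher and 0 lower, against 18.2% and 19.2% of all genes.

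No gene was called for whole lung against whole liver (22.8% of all genes, 0 at an unadjusted p under 0.05, median 0.27) or whole intestine against whole lung (24.6%, 4 unadjusted, median 0.59). Without whole PBMC 1 these became 1 and 11 genes, all higher, against 14.6% and 16.1% of all genes. The extremes for whole lung against whole liver were Rps27l, at -1.03 ± 0.61 (adjusted p = 0.23), and Rps19, at 1.45 ± 0.73 (adjusted p = 0.15). For whole intestine against whole lung they were Rpl21, at -0.16 ± 0.60 (adjusted p = 0.90), and Rps2, at 2.29 ± 0.87 (adjusted p = 0.050). Without the third whole intestine array, whose median was 0.90, the count for whole intestine against whole liver was 0, and it was also 0 without the third whole liver array and 2 without the second. With 1 array left out, 16.7% to 31.1% of all genes were called in that comparison.

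Other genes of the same machinery were counted by list. Of 19 elongation factor and other TOP genes, all tested, 10 were called higher in liver Trm than in whole liver and 12 in lung Trm than in whole lung. The counts were 5 for intestine Trm and 19 for blood Tem, and 0 were lower in each of the 4 comparisons. Without whole PBMC 1 the counts were 15, 17, 11 and 15, against 10.9%, 19.8%, 15.3% and 28.7% of all genes. The elongation factor gene Eef2 differed by 3.60 ± 0.63 in lung Trm (adjusted p = 1.71e-05), and the initiation factor subunit gene Eif3e by 2.47 ± 0.44 in intestine Trm (adjusted p = 3.26e-05). Of all genes, 8.59%, 15.7%, 11.7% and 44.2% were called higher in these comparisons. Against blood Tem, 4 of the 19 were called lower in liver Trm, where 41.3% of all genes were, among them the histone chaperone gene Nap1l1 (-1.37 ± 0.42, adjusted p = 0.011). In lung and intestine Trm 0 were called lower, against 1.41% and 11.8% of all genes.

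Genes of ribosome assembly were counted next. Of 32 listed, 25 were tested, and 14 were called lower in liver Trm than in blood Tem and 0 higher, with Gar1, of the box H/ACA particles, at -1.59 ± 0.40 (adjusted p = 0.0038) and Pes1, of large-subunit maturation, at -1.81 ± 0.55 (adjusted p = 0.011). Of all genes, 41.3% were called lower in that comparison, and the medians were -0.71 for the list and -0.67 for all genes. In lung Trm 0 were called against blood Tem (3.38% of all genes), and 3 were lower in intestine Trm, against 11.8% of all genes. Against whole organs, 2 were higher in liver Trm, 12 higher and 1 lower in lung Trm, and 5 higher in intestine Trm. Of all genes, 8.59%, 15.7% and 11.7% were higher in these comparisons, and 25.6% were lower in lung Trm. The liver share was close to that of all genes. Leaving out whole PBMC 1 gave 4 higher in liver Trm, 14 higher and 1 lower in lung Trm, and 6 higher in intestine Trm. The shares of all genes were then 10.9%, 19.8% and 15.3% higher, with 27% lower in lung Trm. The nucleolar gene Nop58 was higher by 1.68 ± 0.62 in liver Trm (adjusted p = 0.036) and 2.59 ± 0.60 in lung Trm (adjusted p = 0.00065).

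The mitochondrial ribosome is encoded by a separate set of nuclear genes. Of 78 listed and 70 tested, 49 were called lower in liver Trm than in blood Tem and 0 higher, against 41.3% of all genes lower. The list's median difference was -1.003 there, beside -0.67 over all genes. Against whole liver 18 were called lower and 0 higher, a share close to the 23.8% of all genes. In lung Trm 15 were higher and 4 lower than in whole lung, against 15.7% and 25.6% of all genes. In intestine Trm 2 were higher and 6 lower than in whole intestine, against 11.7% and 20% of all genes. Mrps31, of the mitochondrial small subunit, differed by -3.11 ± 0.44 in liver Trm from whole liver (adjusted p = 1.04e-06). Leaving out whole PBMC 1 gave 1 higher and 25 lower in liver Trm, 32 higher and 4 lower in lung Trm and 2 higher and 10 lower in intestine Trm. The shares of all genes were then 10.9%, 19.8% and 15.3% higher and 26.7%, 27% and 23% lower. Among 13 tested regulators, 8 were called lower in liver Trm than in blood Tem, where 41.3% of all genes were, with a list median of -1.09 beside -0.67 over all genes. Among them was the cap-binding protein gene Eif4e (-2.86 ± 0.39, adjusted p = 1.98e-05). Myc, which drives ribosomal gene transcription, was higher than in blood Tem in lung Trm (2.35 ± 0.63, adjusted p = 0.038) and in intestine Trm (1.98 ± 0.63, adjusted p = 0.031).

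Genes with and without a tract in their window, printed above or not, were counted side by side, against whole organs with whole PBMC 1 in the fit. In liver Trm against whole liver 27 of 33 tested genes with a tract were called higher and 1 lower, with a median difference of 1.97, and 19 of 26 without one were called higher and 0 lower, with a median of 1.72. In lung Trm the counts were 15 of 33 and 11 of 26 higher, with medians of 1.63 and 1.099. Of all genes, 8.59% were called higher and 23.8% lower for liver, and 15.7% higher for lung. Against blood Tem no gene of either kind was called in liver or lung Trm, where 52.8% and 3.38% of all genes were. In intestine Trm 0 of 33 with a tract and 1 of 26 without one were called lower, against 11.8% of all genes.

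A second reading came from other probes of the same genes. For 49 genes, 79 further probes were measured, and 76 of them were higher in the sorted cells of liver and of lung than in the whole organ, 73 in intestine and 77 in blood. The probes of Rpl14, of the large subunit, disagreed in sign in all 4 comparisons. Its second probe was at -1.45 in liver Trm against whole liver, where the probe used gave 1.33. Rpl22 also disagreed in liver, Rps24 in lung, and Rpl22, Rpl31, Rps24 and Rps3 in intestine.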

How the data were processed

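Spot intensity in the deposited scanner files had been background-subtracted and detrended, per the file headers with Feature Extraction 11.0.1.1 (the submitters' processing notes name 10.7 and Partek). A deposited table of log2 values differed from quantile-normalized intensities by at most 0.000764 (median absolute difference per array). RefSeq accessions (GRCm38.p6) named 27508 of the 39429 probes.

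Log2 intensities were scaled by each array's 75th percentile over the 1341 probes above background on all 35 arrays, 63 of them of ribosomal protein genes. Testing required a probe above background in at least 3 samples of some group. Sorted cells were compared in a limma 3.58.1 fit (R 4.3.3) of 23 arrays and whole organs in a fit of all 35, each with a mean per group. The code was tested on simulated data. P-values are two-sided and adjusted by Benjamini-Hochberg over all genes. The number of arrays limits the precision.

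The members, lists and tests were chosen with earlier results of these data known. Genes named were paralogs and partners, stalk genes, Rpsa, Rps6, per comparison up to 4 called genes with the largest difference in each direction (the extremes where none was called), the 4 most and 4 least variable genes, genes whose probes disagree (1 such gene is not reported here), and up to 2 called genes of each list. Sorted replicate numbers coincide with slides, and whole organs lay on other slides, so slide and sorting cannot be told apart. Same-numbered arrays did not deviate together (33 correlations from -0.36 to 0.44, 18.2% above 0.1).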

Additional observations from a re-analysis of the deposited data

Results flagged for a closer look

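On 4 genes the third blood Tem array lay far above the other 5 arrays of its group, by a gap larger relative to the range than Dixon's 95% critical value. Rps27 stood at 2.64 there, against 1.06 to 1.55 on the other Tem arrays. Rps6 stood at 2.05, against 0.26 to 0.741. Rpl3 was at 2.06, against 0.877 to 1.31, and Rpl39 at 2.24, against 1.06 to 1.46. Over 72 gene and group combinations 4 were marked in this way, and chance marks about 1 in 20.

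The excess of sorted cells over their organ differed between liver and intestine for Rps3, by 2.14 ± 0.70 log2 units (SE, limma interaction, adjusted p = 0.033). Rps3 was at -0.10, 0.64, -0.11, -0.16 and 0.19 in liver Trm, against -2.75, -2.87 and -3.51 in whole liver. Its lowest, median and highest levels were -0.82, -0.18 and 0.13 in intestine Trm, against -1.78, -1.64 and -0.30 in whole intestine. A second Rps3 probe differed from the organ by 0.67 in liver Trm and by -0.003 in intestine Trm. Rps3 was not alone in direction, as the excess was larger for liver than for intestine in 78 of the 79 genes. Without whole PBMC 1, 34 genes were called in this contrast, against 18.6% of all genes.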

How the results depend on the processing

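Counts of genes called out of 79 are given below. On whole PBMC 1, 39 of the 79 genes were above background, which limits what that array can show.

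Liver Trm against blood Tem (0) gave 1 with scaling without ribosomal protein probes, over all probes or to the ribosomal protein median, 15 with scaling over probes detected in sorted cells, 3 with no filter, 1 with the filter on every array and 18 with array weights. Intestine Trm against blood Tem (1) gave 3 with scaling without ribosomal protein probes, normexp or array weights, 2 with the mean of probes, and 0 with ribosomal protein median scaling, no filter, all 35 arrays or the replicate block. Lung against liver Trm (0) gave 1 over all probes, with quantile normalization or without the 4 doubted arrays, 2 with ribosomal protein median scaling, the deposited values, the filter on every array or the mean of probes, 4 with normexp, 5 with no filter, 18 with sorted-cell scaling and 32 with array weights. Intestine against liver Trm (0) gave 2 with array weights. Intestine against lung Trm (0) gave 1 with the mean of probes, the 2 groups alone or without the doubted arrays, 2 over all probes, 4 with sorted-cell scaling, 8 with quantile normalization or the deposited values and 10 with array weights. Lung Trm against blood Tem stayed at 0 in every alternative run. Shares of all genes called follow for 14 alternatives, ribosomal protein median scaling aside. They were 24.8% to 64.2% for liver, 1.06% to 18.7% for lung and 6.21% to 22.8% for intestine Trm against blood Tem. They were 12.8% to 69.6% for lung and 3.95% to 44.9% for intestine against liver Trm, and 2.74% to 29.1% for intestine against lung Trm.

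Liver Trm against whole liver (63) gave 15 with ribosomal protein median scaling. Lung Trm against whole lung (32) gave 51 with the mean of probes, 79 with array weights, 77 with the 2 groups alone, 69 without whole PBMC 1 and 74 without the doubted arrays. Intestine Trm against whole intestine (5) gave 15 with quantile normalization or the deposited values, 14 with normexp, 12 with the mean of probes, 77 with array weights, 18 with the 2 groups alone, 37 without whole PBMC 1 and 42 without the doubted arrays. Blood Tem against whole PBMC (78) gave 42 with ribosomal protein median scaling, 45 with the 2 groups alone or without whole PBMC 1, and 40 without the doubted arrays. Whole lung against whole liver (0) gave 1 with the mean of probes or without whole PBMC 1, 2 over all probes or without the doubted arrays, 3 with quantile normalization or the deposited values, 5 with the 2 groups alone and 42 with array weights. Whole intestine against whole liver (4) gave 24 over all probes, 1 with ribosomal protein median scaling or the 2 groups alone, 8 with quantile normalization or the deposited values, 11 with normexp, 7 with no filter, 67 with array weights, 0 with the replicate block, 48 without whole PBMC 1 and 44 without the doubted arrays. Whole intestine against whole lung (0) gave 1 with quantile normalization, the deposited values, the filter on every array, the mean of probes or the 2 groups alone, 2 over all probes or with ribosomal protein median scaling, 4 with normexp, 14 with array weights, 11 without whole PBMC 1 and 22 without the doubted arrays. The alternatives without whole PBMC 1 or without the doubted arrays (whole PBMC 1, whole liver 2, liver Trm 3 and blood Tem 3, with the lowest or highest share of probes above background in their groups) were added after the data were seen. The cause of these changes was not tested. Ribosomal protein median scaling aside, the shares of all genes called against the organs were 15% to 56.8% for liver, 20.2% to 73.2% for lung and 16.7% to 62.9% for intestine Trm. For blood Tem against whole PBMC they were 27.3% to 63.2%. They were 16.1% to 59.1% for whole lung and 16.9% to 55.7% for whole intestine against whole liver, and 12.3% to 52.4% for whole intestine against whole lung.

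Leaving out 1 array at a time gave 0 to 8 for liver, 0 to 0 for lung and 0 to 3 for intestine Trm against blood Tem, 0 to 8 for lung against liver Trm, 0 to 0 for intestine against liver or lung Trm, 37 to 62 for liver Trm, 21 to 32 for lung Trm and 1 to 10 for intestine Trm against their organs, 45 to 79 for blood Tem against whole PBMC, 0 to 0 for whole lung and 0 to 5 for whole intestine against whole liver, and 0 to 1 for whole intestine against whole lung. The shares of all genes called, in the same order, were 36.6% to 58.5%, 2.19% to 4.34% and 13.2% to 19.1% against blood Tem. Between Trm populations they were 6.45% to 44.2%, 7.43% to 23.5% and 5.4% to 13.8%. Against the organs they were 26.7% to 32.1%, 34.4% to 42.4% and 25.3% to 31.5%, and 38.1% to 55.8% for blood. Between whole organs they were 17.2% to 27%, 16.7% to 31.1% and 19.4% to 23.4%.

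The labels do not say whether sorted arrays of the same number shared animals, and the correlations of their deviations cannot settle it. The replicate block is thus a comparison of a number only. Signs of named genes turned mostly with ribosomal protein median scaling, which removes the common shift. In liver Trm against whole liver Rpl22 was then -0.52, Rplp0 -0.28, Rplp1 -0.079, Rplp2 -0.56, Rpsa -0.59, Rpl7 -0.59 and Rpl10 -0.98. In lung Trm Rps27 was -0.43, Rpl22 -0.55, Rplp0 -0.56, Rplp2 -0.77, Rpsa -0.70, Rpl7 -0.55 and Rpl10 -0.73. In intestine Trm Rps27 was -0.10, Rpl22 -0.17, Rplp0 -0.33, Rplp2 -0.49, Rpsa -0.18, Rpl7 -0.36 and Rpl10 -0.27. In blood Tem Rps27l was -0.45, Rps27 -1.28, Rpl22 -0.61, Rplp0 -0.54, Rplp1 -1.02, Rplp2 -1.47, Rpsa -0.84, Rpl7 -0.9995 and Rpl10 -0.27. With the mean of probes Rps24 was -0.087 in liver Trm against blood Tem and Rpl21 0.13 in whole intestine against whole lung, and Rps27l in intestine against liver Trm was -0.077 with quantile normalization and -0.075 with the deposited values. Of the values of named genes under alternatives, 1868 kept sign and side of the threshold, 146 newly passed it, 113 no longer did and 34 reversed.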
